A study of Homo sapiens with 4 samples.

Results

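Non-homologous end joining rejoins the ends of a broken chromosome directly, without a sister chromatid as template. The Ku heterodimer slides onto each end and recruits the kinase DNA-PKcs, Artemis opens and trims ends that cannot be ligated as they are, and the scaffold of XRCC4 and XLF holds the ends while DNA ligase IV seals them. 53BP1 binds chromatin around the break and protects the ends from resection, which favours end joining over homologous recombination. Human cells use this route throughout the cell cycle, and lymphocytes use it to assemble their antigen receptor genes.

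The genes analysed were 8 core and end-protecting genes of this pathway, chosen by name: XRCC5 (Ku80), XRCC6 (Ku70), PRKDC (DNA-PKcs), DCLRE1C (Artemis), XRCC4, NHEJ1 (XLF), LIG4 (DNA ligase IV) and TP53BP1 (53BP1). They were found as the spots other than controls that carry these names, which gave 8 of the 27193 gene names on the array, with 10 probes and 19 spots. All 8 passed the filter on dim probes, which kept a probe if the 2 arrays of either group had flagged it well above background, and each of the 8 had that flag on all 4 arrays.

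The arrays held RNA of MCF10A.B2 cells, a line made from the non-tumorigenic breast epithelial line MCF10A by adding a chimeric ErbB2 (HER2) receptor that the dimerizer AP1510 switches on. The 2 samples of the control group were MCF10A.B2 cells labelled wild type for PAK1, and the 2 samples of the PAK1 shRNA group were MCF10A.B2 cells with a tetracycline-inducible shRNA against PAK1, a kinase that acts downstream of Rac and Cdc42. Cells of both groups grew in 5% horse serum, were starved of serum for 3 h and received AP1510 for 15 min. The series' own description mentions tumours as the source of cells, but the labels name this line throughout. The labels do not say whether the control cells were parental or uninduced, whether the replicates were separate cultures, or whether the shRNA cells were 1 clone, no non-targeting shRNA was among the arrays, and p-values measure only the spread between these samples.

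The shRNA target was read first. In control cells PAK1 gave a normalized log2 intensity of 11.22 and 11.30, and in PAK1 shRNA cells one of 10.47 and 10.55. Its signal in the PAK1 shRNA cells was 59.4% of control (log2 fold change -0.75, SE 0.077, n = 2 and 2, limma adjusted p = 0.00017). Replicate arrays correlated at r = 0.998 in both groups, and arrays of different groups at 0.932 to 0.942. Of the 21909 genes tested, 13803 differed between the groups at an adjusted p under 0.05, which is 63% of them, and 81.8% of genes had groups that did not overlap. A call on this array set is therefore the usual outcome for a gene, and the counts of end joining genes stand beside these shares. In bulk RNA of this kind, fewer cells of a type and less RNA per cell cannot be told apart.

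Most of the end joining genes were lower in the PAK1 shRNA cells. At an adjusted p under 0.05, 7 of the 8 genes were called, beside 63% of all genes. The 5 that fell were XRCC6, PRKDC, XRCC4, NHEJ1 and XRCC5, and all genes were called lower in 32.1% of cases. The 2 that rose were DCLRE1C and TP53BP1, and all genes were called higher in 31% of cases. LIG4 did not pass the test. The 8 genes had a median log2 fold change of -0.80 against 0.02 over all genes tested, and a median size of change, without its sign, of 0.94 against 0.38. With a change of at least 2-fold asked for as well, 3 genes were lower (XRCC6, PRKDC and XRCC4, beside 9.08% of all genes). At that threshold 1 gene was higher (DCLRE1C, beside 8.85% of all genes). PRKDC (log2 fold change -1.04) and XRCC4 (-1.03) lay close to the 2-fold limit. With normexp, the background correction, fitted on all spots they fell short of it (-0.97 and -0.71). A permutation test of a single gene with 2 arrays against 2 cannot give a two-sided exact p below 0.333, so the tests rest on the spread that limma pools over all genes.

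**Figure D1:**
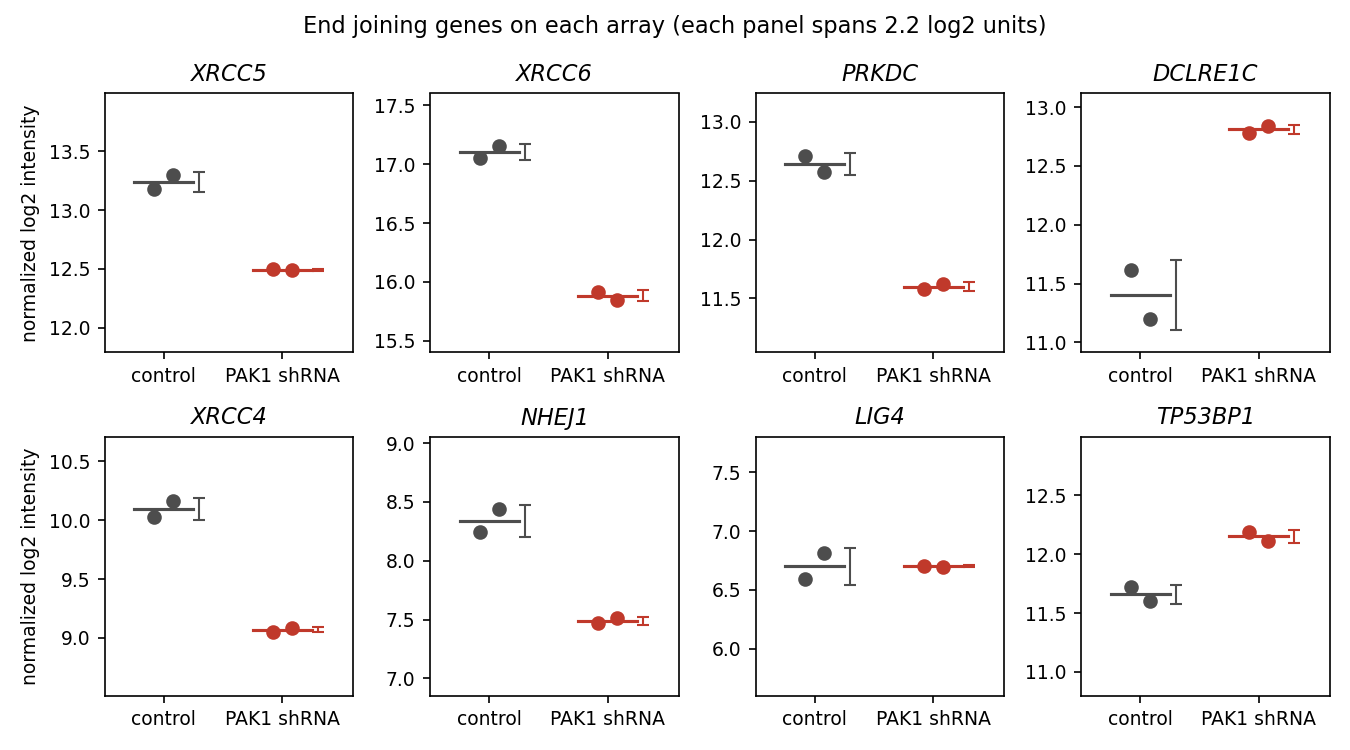
Normalized log2 intensity of the 8 end joining genes on the 2 control arrays (grey) and the 2 PAK1 shRNA arrays (red), with the group mean (line) and SD (bar, n = 2). The groups do not overlap for 7 genes (and for 81.8% of all genes tested), whereas for LIG4 both PAK1 shRNA values (6.71 and 6.70) lie between the control values of 6.59 and 6.81.

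4 of the 10 probes are shown by sequence, because they decide how the values of their genes can be read. The positions are those of the array files (hg19), each probe is 60 bases long, and the letters are as those files give them, 5′ to 3′. XRCC4 (chr5:82500709-82554376, plus strand) and TP53BP1 (chr15:43699751-43700182, minus strand) are each read by a probe whose bases extend over 53668 and 432 genomic bases, so that each crosses a splice junction and matches the spliced transcript. DCLRE1C is read by 2 probes on the minus strand, the brighter at chr10:14950499-14950558 and the dimmer at chr10:14976703-14976762, 26204 bases towards the 5′ end of the gene.
XRCC4 probe: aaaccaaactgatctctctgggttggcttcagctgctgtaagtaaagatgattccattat
TP53BP1 probe: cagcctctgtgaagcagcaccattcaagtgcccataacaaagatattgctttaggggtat
DCLRE1C brighter probe: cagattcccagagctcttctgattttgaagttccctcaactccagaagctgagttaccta
DCLRE1C dimmer probe: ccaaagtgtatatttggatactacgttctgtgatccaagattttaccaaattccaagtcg

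The sensors of broken ends fell together. XRCC6, whose product Ku70 forms the ring around DNA with Ku80, was read at chr22:42059942-42060001 on the plus strand. Its log2 intensity was 17.06 and 17.15 in control cells and 15.91 and 15.85 in PAK1 shRNA cells. Both PAK1 shRNA arrays lay below either control array, and the closest pair of arrays still differed by -1.14. XRCC6 thus had a log2 fold change of -1.22 (SE 0.078, 95% confidence interval -1.41 to -1.04, limma adjusted p = 1.99e-05), a signal at 42.8% of control and the deepest fall among the 8 genes. RefSeq names 5 pseudogenes after XRCC6, and whether their transcripts reach this probe was not tested.

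XRCC5 encodes Ku80, the partner of Ku70 in the ring, and was read at chr2:217057384-217057443 on the plus strand. It gave 13.18 and 13.30 in control cells and 12.50 and 12.49 in PAK1 shRNA cells. The closest pair of arrays of the 2 groups differed by -0.68, beside a control SD of 0.084. The change came to -0.74 on the log2 scale (SE 0.079, 95% confidence interval -0.93 to -0.55, adjusted p = 0.0002), which left 59.8% of the control signal. The confidence intervals of the Ku genes do not overlap, but the difference between their changes was not tested.

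PRKDC, which encodes the DNA-PK catalytic subunit that Ku recruits, was read by 2 probes of neighbouring sequence on the minus strand of chromosome 8. The brighter probe (chr8:48686301-48686360) gave 12.71 and 12.57 in control cells and 11.57 and 11.63 in PAK1 shRNA cells. The dimmer probe (chr8:48686485-48686544) gave 9.90 and 9.94 in control cells and 8.94 and 9.08 in PAK1 shRNA cells. Neither probe had an overlap between the groups. The brighter had a log2 fold change of -1.04 (SE 0.082, adjusted p = 4.95e-05), at 48.6% of the control signal. The dimmer had one of -0.91 (SE 0.082, adjusted p = 5.89e-05), from a separate limma fit over all kept probes. In that fit the brighter had a limma adjusted p of 3.17e-05.

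Artemis went the other way. DCLRE1C encodes this nuclease, which opens hairpins and trims overhangs once DNA-PKcs has activated it. The brighter of the probes printed above gave 11.61 and 11.19 in control cells and 12.78 and 12.84 in PAK1 shRNA cells. The control arrays differed by more than for any other of the 8 genes (SD 0.30), yet the closest pair of arrays of the 2 groups differed by 1.17. DCLRE1C rose by 1.41 on the log2 scale (SE 0.14, 95% confidence interval 1.08 to 1.74, adjusted p = 0.00013), a 2.65-fold rise. The methods name limma for the arrays and an unpaired test for the study in general. With that general test (the methods' t-test) DCLRE1C passed a p under 0.05 without adjustment, and the call was lost after Benjamini-Hochberg adjustment (adjusted p = 0.0513).

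The dimmer DCLRE1C probe gave 7.32 and 7.42 in control cells and 8.06 and 8.11 in PAK1 shRNA cells. It rose too, by a log2 fold change of 0.71 (SE 0.078, limma adjusted p = 0.00016 in the fit over all probes), which is 0.69 less than the brighter probe. Its net signal over local background was 107 to 133 intensity units in control cells and 177 to 182 in PAK1 shRNA cells, so the offset of 50 added during background correction weighs on its fold. With an offset of 16 its log2 fold change was 0.85, and with normexp fitted on all spots 0.25. With the processed signal of the scanner software it was 1.23, beside 1.48 for the brighter probe, so the gap between the probes depended on the background correction. RefSeq names 1 pseudogene after DCLRE1C, and its part in either probe's signal was not tested.

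**Figure D2:**
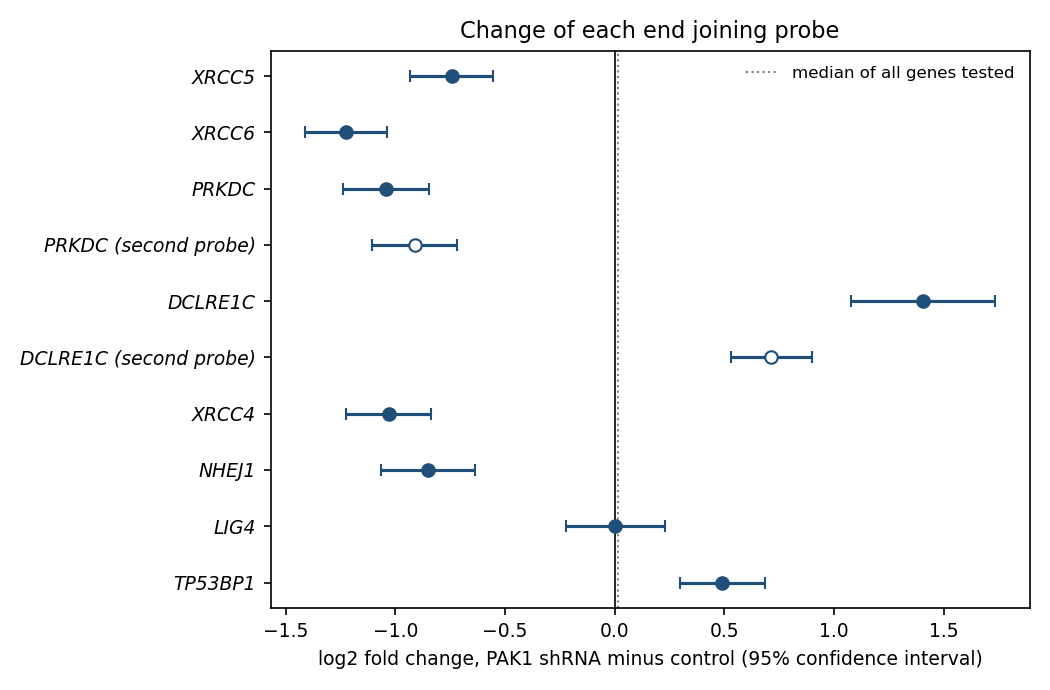
Log2 fold change (PAK1 shRNA minus control, x axis) of each of the 10 end joining probes with its 95% confidence interval from limma (2 and 2 arrays). Filled points are the probes that stand for their gene, from the fit over genes. Open points are the second probes of PRKDC and DCLRE1C, from the fit over all kept probes. The dotted line is the median of all genes tested (0.02). Only the interval of LIG4 reaches 0.

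In the ligation complex XRCC4 and NHEJ1 were called lower, while the probe of LIG4 was too dim to show whether it differed from them. XRCC4, the scaffold that stabilizes DNA ligase IV, fell, and its probe was printed in 10 spots on every array, which shows the technical spread directly. The 10 spots ranged from 9.74 to 10.28 and from 9.89 to 10.37 on the control arrays, and from 8.81 to 9.22 and from 8.72 to 9.31 on the PAK1 shRNA arrays. No spot of a PAK1 shRNA array reached the lowest control spot. Averaged, XRCC4 gave 10.03 and 10.16 in control cells and 9.05 and 9.08 in PAK1 shRNA cells, with a log2 fold change of -1.03 (SE 0.081, 95% confidence interval -1.22 to -0.84, adjusted p = 4.97e-05), at 49% of the control signal, with spots of 1 array scattering by an SD of 0.15 to 0.20.

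NHEJ1 encodes XLF, which pairs with XRCC4 to bridge the ends, and was read at chr2:219940989-219941048 on the minus strand. It gave 8.25 and 8.44 in control cells and 7.47 and 7.51 in PAK1 shRNA cells. The closest pair of arrays of the 2 groups differed by -0.73. NHEJ1 changed by -0.85 on the log2 scale (SE 0.090, 95% confidence interval -1.07 to -0.64, adjusted p = 0.0002), at 55.4% of the control signal. The size depended on the background correction, because with normexp fitted on all spots it was -0.33 (adjusted p = 0.0046).

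LIG4 encodes the ligase itself and was read at chr13:108860756-108860815 on the minus strand. It gave 6.59 and 6.81 in control cells and 6.71 and 6.70 in PAK1 shRNA cells. The groups overlapped, with a log2 fold change of 0.0025 (SE 0.094, 95% confidence interval -0.22 to 0.23, adjusted p = 0.98). This probe was dim, with a net signal of 47.4 and 48.7 intensity units in control cells and of 38.9 and 37.5 in PAK1 shRNA cells, so an offset of 50 exceeds the signal and draws a fold towards 1. Over all alternatives its log2 fold change lay between -0.11 and 0.28 and none was called. The confidence interval is on the scale after the offset, where a given change of the net signal appears smaller, so changes of LIG4 within it were not detectable.

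TP53BP1, whose product marks the chromatin around breaks and holds back resection, rose by less than Artemis. Its junction probe gave 11.72 and 11.60 in control cells and 12.19 and 12.11 in PAK1 shRNA cells. The lowest PAK1 shRNA value was 0.39 above the highest control value. Its log2 fold change was 0.49 (SE 0.081, 95% confidence interval 0.30 to 0.69, adjusted p = 0.0017), a 1.41-fold rise. Before normalization between arrays the net signals overlapped, at 4382 and 3157 intensity units in control cells and 3790 and 3570 in PAK1 shRNA cells, while all spots had a median net signal of 455 and 339 in control cells against 282 and 275 in PAK1 shRNA cells. The rise of TP53BP1 is therefore a rise relative to the other genes of the array, and under every scaling tried it remained between 0.41 and 0.54.

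Artemis, in contrast, was apart before any normalization, with net signals of its brighter probe of 4072 and 2393 in control cells and of 5773 and 6041 in PAK1 shRNA cells. XRCC6 gave net signals of 172580 and 153670 in control cells and of 53053 and 50175 in PAK1 shRNA cells. The PAK1 shRNA arrays were also dimmer in the median, and LIG4 was lower there before normalization as well. The part of array brightness in these net signals was not tested.

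**Figure D3:**
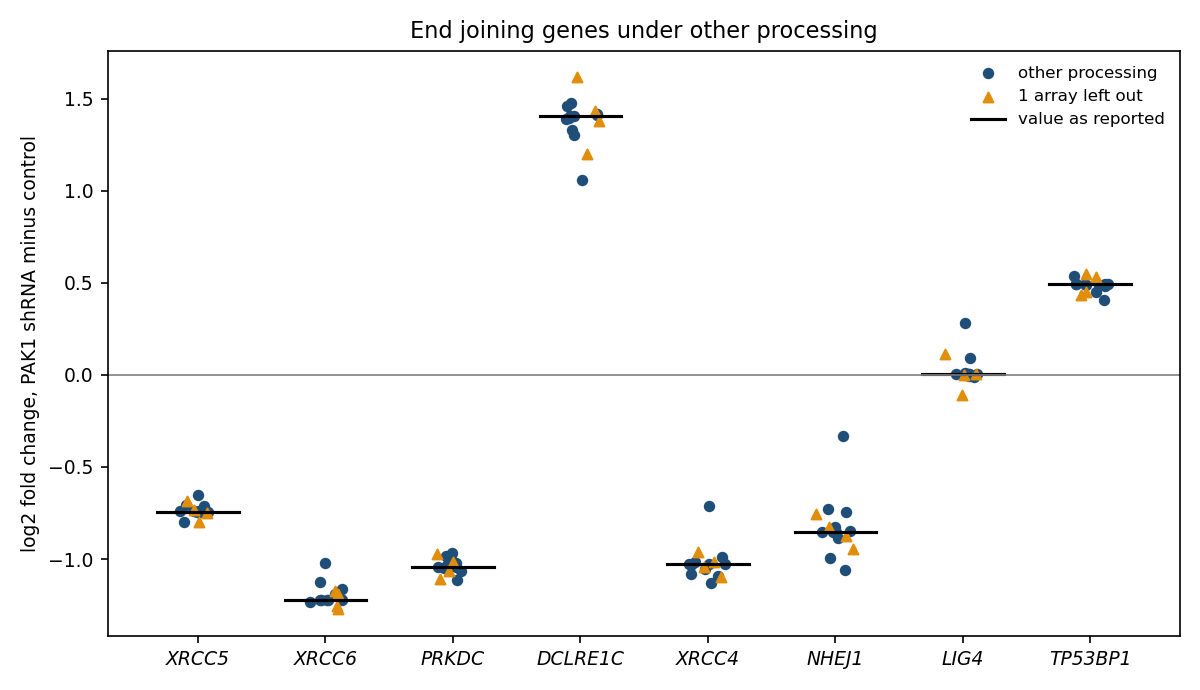
Log2 fold change (PAK1 shRNA minus control, y axis) of each end joining gene as reported (black line), with other signals, scalings, filters and probe rules (circles), and with 1 array left out (triangles). The genes that fell or rose kept their sign under all of them, LIG4 lay on both sides of 0, and the circle at -0.33 for NHEJ1 is normexp fitted on all spots.

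The promoters of the genes with the deepest fall and the largest rise are shown with the motifs that were searched, since the genes of the pathway moved in opposite directions. The windows run from 250 bases before to 50 bases after the RefSeq start (GRCh38.p14), and each is printed in the sense of its gene. Capitals mark CCAAT, the box bound by NF-Y, on either strand (ATTGG on the opposite strand) and the E2F motif.
XRCC6 promoter, chr22:41621045-41621344, plus strand: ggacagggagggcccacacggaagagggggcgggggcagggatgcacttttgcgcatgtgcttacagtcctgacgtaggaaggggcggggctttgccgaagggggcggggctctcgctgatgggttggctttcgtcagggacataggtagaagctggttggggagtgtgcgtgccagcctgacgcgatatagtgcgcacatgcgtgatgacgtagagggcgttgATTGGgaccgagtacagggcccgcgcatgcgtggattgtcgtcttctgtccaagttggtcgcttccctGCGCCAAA
DCLRE1C promoter, chr10:14954383-14954682, minus strand: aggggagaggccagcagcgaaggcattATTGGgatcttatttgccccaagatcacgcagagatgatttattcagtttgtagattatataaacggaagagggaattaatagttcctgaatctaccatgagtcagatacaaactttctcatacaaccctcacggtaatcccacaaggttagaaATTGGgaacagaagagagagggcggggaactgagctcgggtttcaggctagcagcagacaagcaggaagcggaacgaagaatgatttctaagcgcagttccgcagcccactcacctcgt

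Windows of 6 of the genes were searched, 12 in all, on both strands. XRCC5 had no entry in the table and PRKDC was not searched. The E2F motif (TTTCCCGC, TTTCGCGC, TTTGCCGC or TTTGGCGC) was found in XRCC6 alone, 43 bases after the start, and in 3.31% of all 35116 windows of the table. CCAAT was found in 7 of the 12 windows, of genes that fell (XRCC4, XRCC6), rose (DCLRE1C, TP53BP1) and did not pass the test (LIG4), and in 34.6% of all windows. GGGCGG, the GC box, was in 9 of the 12 windows and 45% of all windows. The cell cycle homology region (TTTGAA or TTTAAA) was in 1 window and in 24% of all windows. That window was another one of DCLRE1C (chr10:14954047-14954346), not the one printed above. The interferon-stimulated response element was in 0 of the 12 and in 3.57% of all. These matches describe letters in a window, and binding was not measured.

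The factors that prepare ends for ligation moved in both directions. Of 15 end processing and accessory genes, 12 were tested, 7 fell, 3 rose and 2 did not pass the test, with a median log2 fold change of -0.41. Of those tested, 58.3% were called lower and 25% higher, beside 32.1% and 31% of all genes. TDP1, which removes topoisomerase remnants from DNA ends, had a log2 fold change of -1.74, PAXX, a paralog of XRCC4 and XLF, of -1.52, and CYREN, a Ku-binding regulator of end joining, of -1.20 (adjusted p = 5.59e-06, 7.21e-06 and 3.83e-05). RAG1, which cuts antigen receptor genes in lymphocytes, was dim, well above background on only 1 of the control arrays, and so passed the filter through the PAK1 shRNA group alone, where it was higher. The RAG1 log2 fold change of 0.89 ran from 0.20 with normexp fitted on all spots to 2.43 with the processed signal of the scanner software, and the call, which is 1 of the 3 rises counted here, was lost with the general test described for DCLRE1C. APTX, which removes AMP from failed ligations, rose by 0.33 (adjusted p = 0.0082), a call that was lost with the mean over its probes (0.17, adjusted p = 0.074). The gap-filling polymerases POLL and POLM did not pass the test, with log2 fold changes of 0.13 (95% confidence interval -0.07 to 0.33) and -0.10 (-0.27 to 0.08). APLF, DNTT and RAG2 had no probe that was kept and were not tested.

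Genes that act with 53BP1 mostly went against TP53BP1 itself. Of 18 genes, 17 were found and tested, 12 fell, 2 rose and 3 did not pass the test, with a median of -0.64. Lower calls made up 70.6% of those tested and higher calls 11.8%, beside 32.1% and 31% of all genes. SHLD3 was not matched to a name on the array. H2AX, the histone whose phosphorylation marks a break, gave 13.46 and 13.71 in control cells and 10.12 and 10.21 in PAK1 shRNA cells, a log2 fold change of -3.42 (adjusted p = 1.01e-06). MDC1, which reads that mark, had a log2 fold change of -2.11 and DYNLL1, a 53BP1 partner, of -1.79 (adjusted p = 2.81e-06 and 3.97e-06). ATM, the kinase that starts the cascade, rose by 0.29, and CTC1 of the CST complex by 0.27 (adjusted p = 0.014 and 0.018), and both calls were lost with median centring (ATM 0.21, adjusted p = 0.060, and CTC1 0.22, adjusted p = 0.052). RIF1, the main effector of 53BP1, was at 0.01 (95% confidence interval -0.21 to 0.24), KAT5 at 0.09 (-0.10 to 0.29) and SHLD2 of shieldin at 0.17 (-0.0031 to 0.34), none past the threshold.

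The competing routes were lower in most of their genes. Microhomology-mediated end joining, which anneals short repeats at resected ends, had 9 genes, of which 7 fell, 0 rose and 2 did not pass the test (median -0.85). FEN1, the flap nuclease, had a log2 fold change of -2.43, POLQ, the polymerase that defines this route, of -1.97 and MRE11, a resection nuclease, of -1.57 (adjusted p = 4.76e-06, 3.93e-06 and 5.07e-06). Of 32 homologous recombination genes, 31 were tested, 23 fell, 3 rose and 5 did not pass the test (median -1.15). Their share called lower was 74.2%, beside 32.1% of all genes. It was 58.3% for the accessory genes, 70.6% for the 53BP1 axis genes and 77.8% for the microhomology genes. The share called higher was 9.7% for homologous recombination and 0% for microhomology genes, beside 31% of all genes. Differences between the lists were not tested.

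**Figure D4:**
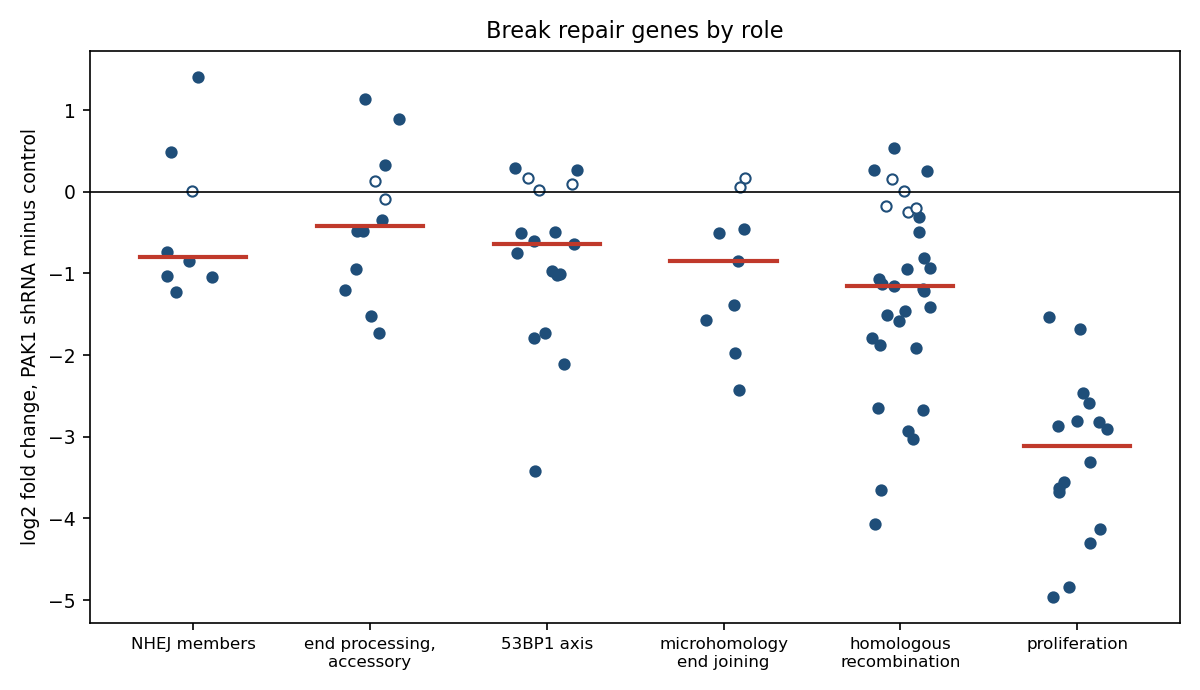
Log2 fold change (PAK1 shRNA minus control, y axis) of every tested gene of the 8 end joining genes, 4 groups of other break repair genes and the proliferation genes, with the group median (red line). Filled points passed an adjusted p of 0.05 and open points did not, and the medians run from -0.41 for the accessory genes to -3.11 for the proliferation genes.

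Markers of other states moved with these genes. All 16 proliferation genes were lower in the PAK1 shRNA cells (median -3.11), and the sum of their normalized intensities was 296900 to 301640 in control and 53106 to 57548 in PAK1 shRNA cells, with CCNB1 at -4.96, TOP2A at -4.84 and MKI67 at -4.30. All 10 interferon-stimulated genes were higher (median 6.69), with sums of 9103 to 9321 in control and 1304800 to 1484900 in PAK1 shRNA cells, and RSAD2 at 11.03, IFIT2 at 8.75 and IFIT1 at 7.99. Over all genes, 32.1% were called lower and 31% higher. The part of proliferation and of the interferon genes in the changes of the end joining genes was not tested.

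Of the defining markers, 5 of 6 basal mammary genes and 4 of 4 epithelial genes carried the flag for a signal well above background on every array. LAMB3 was not tested. On each array 78.9% to 83.2% of all probes carried this flag, so it does not tell whether the cells are those of the label. KRT5 (-1.18), TP63 (-1.14) and KRT14 (-0.97) were lower and CDH3 (0.85), CDH1 (0.96) and KRT18 (0.35) higher in PAK1 shRNA cells. Summed intensity was 276170 to 309950 in control and 214480 to 215210 in PAK1 shRNA cells for the basal list, and 96804 to 99712 and 116720 to 125840 for the epithelial list. Of 6 fibroblast genes, 4 were tested and summed to 4036 to 4803 in control and 7945 to 8132 in PAK1 shRNA cells. LUM (1.80), COL1A1 (0.87) and DCN (0.87) were higher and PDGFRB (-0.59) lower. PDGFRB passed the filter through the control group alone, where it was higher. COL1A2 and COL3A1 were not tested. All 5 leukocyte genes carried that flag too and summed to 19284 to 20164 in control and 45321 to 49367 in PAK1 shRNA cells, where CD14 (1.29) and ITGAM (0.47) were higher. The part of these markers in the results was not tested.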

How the data were processed

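RNA (0.5 µg) of 2 control and 2 PAK1 shRNA samples, grouped by their labels, was hybridized in 1 colour to Agilent whole genome arrays on 1 slide. The deposited spot files hold intensity values as Agilent Feature Extraction (version 9.5.3.1 in the file headers) wrote them, with no normalization between arrays. A second deposited table, used as an alternative, holds log2 values that the authors processed, whose column medians were 9.40 to 9.42 and which correlated with the values used here at r above 0.999 on every array. Its exact centring is not given in the sources used here. The precision is limited by the number of arrays.

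Mean signals were background corrected with normexp (offset 50) against the median local background. The fit of its parameters left out spots with flagged background, 618 and 651 of them on the control arrays. With all spots, the fitted mean moved from -9.19 and -12.06 to -666 and -740 on these arrays. They held 8 and 18 spots of high local background (up to 41412), whose part in this was not tested apart. Control spots and outlier flags were removed, arrays were quantile normalized, spots of a probe were averaged, and each gene was read by its probe of highest mean. Values are on the log2 scale after the offset, which understates the change of dim genes. A probe was kept where the 2 arrays of either group had flagged it well above background. Any probe with no unflagged spot on an array was left out as well, so a gene not tested was not always dim. Genes were tested in R 4.3.3 with limma 3.58.1 (lmFit, eBayes, two-sided, Benjamini-Hochberg adjustment over all 21909 genes, threshold 0.05). All adjusted p are from limma unless another test is named. Second probes of PRKDC and DCLRE1C were tested in a separate fit over all kept probes, with adjustment over those probes. The procedure was tested on simulated data.

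The 8 genes, the gene lists and the tests were chosen with earlier results of these data known, so the lists give no independent support. Named were all 8 genes with every probe, PAK1, and from each list the 3 largest rises and falls past the threshold, with the accessory and 53BP1 genes not past it; some of these are not reported here. Symbols were matched through older names. Promoter sequences and pseudogene names came from RefSeq (GRCh38.p14). Probe positions are in hg19 as in the files, and no annotation of that build was used here, so exons and UTRs are not given. The deviations of replicate 1 of each group were almost uncorrelated over genes (r = 0.011). This cannot show whether samples were handled in pairs, which the labels do not say. Other background corrections, signals, scalings, filters, probe rules, tests and thresholds were tried, as were a block on the replicate number and the removal of single arrays. The mouse arrays were not analysed here.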

Additional observations from a re-analysis of the deposited data

How the results depend on the processing

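XRCC4, XRCC5, XRCC6, PRKDC, NHEJ1, DCLRE1C and TP53BP1 kept their direction under the other background corrections, signals, scalings, flags and probe rules and without any 1 array; other filters, tests and thresholds leave a fold as it is. With the methods' t-test, which they name for the study in general and not for the arrays, 5859 genes were higher and 6227 lower at a p under 0.05 without adjustment, with 2 end joining genes higher and 5 lower, and after Benjamini-Hochberg adjustment 4355 genes were higher and 4785 lower, with 1 end joining gene higher, since DCLRE1C (1.41, adjusted p = 0.0513) was no longer past the threshold. Asking for at least 2-fold as well gave 1938 genes higher and 1990 lower, 1 end joining gene higher and 3 lower, and left out XRCC5 (-0.74), NHEJ1 (-0.85) and TP53BP1 (0.49). LIG4, never called, changed sign with normexp fitted on all spots (-0.00025), without background correction (-0.0034) and in the authors' values (-0.0092), and lay between -0.11 and 0.11 with 1 array left out. Leaving out 1 array gave 5689 to 6356 genes higher and 6042 to 6591 lower, with 2 end joining genes higher and 5 lower each time; a group then holds 1 array that is assumed to vary like the other group. The replicate block gave 6990 genes higher and 7145 lower and changed no call of an end joining gene. Median centring and the processed signal moved the median of all genes to 0.14 and 0.12 on the log2 scale, and LIG4 was at 0.28 and 0.09 under them. Of the other values, 803 stayed the same, as a call on its side of the threshold or a count near its main value. A call was lost for 52, and 33 counts moved further from their main value. Some of the lost calls came from the stricter thresholds alone, where fold and adjusted p were unchanged. The cause of the other changes was not tested. Low signal over background limits LIG4, the dimmer DCLRE1C probe and NHEJ1, whose log2 fold change ran from -1.06 to -0.33.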

Other observations

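Within homologous recombination, BLM, a helicase that dissolves recombination intermediates, had a log2 fold change of -4.06 and EXO1, a resection nuclease, one of -3.03 (limma adjusted p = 2.79e-07 and 6.65e-07). The 3 genes of the list that rose were MUS81, a nuclease that cuts branched DNA, by 0.53, ZSWIM7, a subunit of the Shu complex, by 0.27 and RAD52, which anneals single strands, by 0.25 (adjusted p = 0.0017, 0.028 and 0.028), and the calls of ZSWIM7 and RAD52 were lost with median centring (0.20 and 0.14, adjusted p = 0.087 and 0.19). All 3 of these calls were lost with the methods' t-test after adjustment, MUS81 at an adjusted p of 0.063.

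The genes whose values over the 4 arrays, each centred on its mean, lay nearest to those of XRCC6 were ATP5B (a subunit of the mitochondrial ATP synthase), VDAC3 (a channel of the outer mitochondrial membrane) and KILLIN, at root mean square distances of 0.0030, 0.0066 and 0.0089 log2 units. Within 0.1 of XRCC6 lay 643 genes. Nearest to DCLRE1C were NCRNA00241, DKFZP547J0410 and GRIN2D (a glutamate receptor subunit), at 0.015, 0.021 and 0.035, and 70 genes lay within 0.1.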
